A study of Rattus norvegicus with 10 samples.

Results

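The genes described here are 40 listed cell cycle and DNA replication genes, read in the lumbar spinal cord of morphine-tolerant and saline-treated rats. They were chosen by name from the functions of their products, with no cut on their values, but with earlier results of these data known. A gene was counted as measured if the array held an mRNA probe whose RefSeq accession belongs to it. That held for 32 of the 40 genes, each with 1 probe, among the 15323 mRNA probes of the array. No probe was matched to Mki67, Top2a, Kif11, Birc5, Bub1b, Mcm3, Mcm4 or Mcm5. Of the 32 genes, 31 passed the filter on dim probes, beside 20286 RNAs in all. The exception, Nusap1, a spindle protein, was well above background on 0 of the 10 arrays and was not tested.

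The study compared a morphine tolerance group (MT) with a normal saline group (NS), with 5 arrays in each and 1 rat per array. All were adult male Sprague Dawley rats of 240 to 260 g. Intrathecal injections were given 2 times a day for 7 days, of 10 μg morphine in 10 μl to MT rats 1 to 5 and of 10 μl saline alone to NS rats 6 to 10. The lumbar enlargement was taken after a further morning injection on the following day, and its total RNA was hybridized to single-colour arrays. Values below are quantile-normalized log2 intensities, on which 1 unit is a doubling, so that a value can be compared between rats for 1 gene but not between genes.

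Dividing cells copy their DNA once and then share it between daughter cells. Cyclins and their kinases drive the steps, licensing factors and the MCM helicase open the replication origins, and mitotic kinases, kinesins and the ubiquitin ligase APC/C carry the cell through mitosis. Most of these genes are transcribed mainly in dividing cells. In the adult spinal cord neurons do not divide, and division is known mainly from oligodendrocyte precursors, microglia, ependymal, vascular and meningeal cells. In whole tissue, fewer cells of a type and less RNA per cell cannot be told apart.

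Genes of the S phase are known for E2F sites, and genes of the G2 and M phases for CCAAT boxes and the cell cycle homology region (CHR) in their promoters. Below, 5 promoters are shown from the RefSeq annotation of GRCr8, each as the 140 bases before the annotated start of the gene, 5′ to 3′ on the strand of the gene. Ccnb1 and Kif20a varied widely between NS rats, Cdc20 holds a CHR beside 2 CCAAT boxes, Mcm6 stands for the replication genes, and Cdca7 differed most between the groups. Capitals mark matches to the 3 motifs on either strand. The CHR was searched as TTTGAA alone, and variants of these letters were not searched. The CCAAT box was searched by the letters of its name. The E2F site was searched as TTTCCCGC, as TTTCGCGC, as TTTGCCGC and as TTTGGCGC. Ccnb1 is from chr2:33655226-33655365 (minus strand), Kif20a from chr18:26504282-26504421 (plus strand), Cdc20 from chr5:137255800-137255939 (minus strand), Mcm6 from chr13:42404353-42404492 (minus strand) and Cdca7 from chr3:77730175-77730314 (plus strand). The annotated lncRNA gene LOC103692460 reaches into the far end of the Cdc20 window.
Ccnb1: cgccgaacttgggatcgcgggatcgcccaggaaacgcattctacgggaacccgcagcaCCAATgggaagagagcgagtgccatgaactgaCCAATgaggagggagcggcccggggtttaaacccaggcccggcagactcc
Kif20a: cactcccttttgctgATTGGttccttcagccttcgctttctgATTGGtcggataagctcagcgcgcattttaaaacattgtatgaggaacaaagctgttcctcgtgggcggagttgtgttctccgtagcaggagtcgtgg
Cdc20: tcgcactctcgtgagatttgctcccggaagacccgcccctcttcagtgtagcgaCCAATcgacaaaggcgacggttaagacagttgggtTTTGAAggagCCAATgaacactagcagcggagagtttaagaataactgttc
Mcm6: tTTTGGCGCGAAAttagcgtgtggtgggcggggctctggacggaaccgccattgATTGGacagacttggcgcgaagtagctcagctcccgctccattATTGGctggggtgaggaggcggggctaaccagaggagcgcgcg
Cdca7: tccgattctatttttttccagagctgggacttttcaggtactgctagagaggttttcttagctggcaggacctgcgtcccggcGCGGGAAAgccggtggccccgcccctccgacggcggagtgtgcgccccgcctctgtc

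The Ccnb1 and Kif20a stretches hold CCAAT matches with no match to TTTGAA, whereas Cdca7 holds an E2F match and no CCAAT match. As variants of the CHR were not searched, this does not show that Ccnb1 and Kif20a lack a CHR. Cdca7 also has a TTTGAA match on the opposite strand at position -164 from its start, beyond the stretch shown. At the far end of the Mcm6 stretch, 2 E2F matches on opposite strands overlap. Over the window from 250 bases before to 50 after the start, a promoter was given for 30 of the 40 genes. CCAAT was found in 23 of these 30, against 37.7% of all 27457 promoters. TTTGAA was found in 13, against 18.1%, and TTTGAA together with CCAAT in 10, against 7.25%. E2F letters were found in 9 of 30, against 2.25% of all promoters. Over the 19005 protein-coding promoters alone, the shares were 38.4% for CCAAT, 17.0% for TTTGAA, 7.04% for both and 2.82% for E2F. Over 141 promoters of other cell cycle genes, they were 50.4%, 39.0%, 23.4% and 17.0% in the same order. A match of letters is a description and not a binding site. No motif was searched for a relation with the array values.

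The arrays differed in brightness, and the recorded scan times place them in sets that were scanned together. MT rats 1, 3, 4 and 5 formed scan 1, MT rat 2 with NS rats 6, 7 and 10 formed scan 2, and NS rats 8 and 9 formed scan 3. Between 77.4% and 83.9% of spots were well above background in scans 1 and 2, against 63.8% and 58.6% for NS rats 8 and 9. As scan 1 held MT rats alone and scan 3 held NS rats alone, scan 2 is the only set with both groups, and the difference within it is given below for the genes called. Markers were present of neurons (Nefl and Nefm), astrocytes (Gfap) and oligodendrocytes (Mbp), whose mean log2 intensities in the MT group were 16.6, 16.6, 16.3 and 17.0. Genes of the lumbar position code set MT rat 3 apart from the others. Hoxa11 was 4.41 in MT rat 3, against 10.03, 11.17, 10.88 and 11.21 in MT rats 1, 2, 4 and 5. It was 11.15, 8.10, 10.15, 8.35 and 8.09 in NS rats 6 to 10. NS rats 7, 9 and 10 were thus also below MT rats 1, 2, 4 and 5. Hoxd10 was also lowest in MT rat 3 (10.27, against 10.83 to 12.13 in the other 9 rats). Of all RNAs, 21.2% were lowest and 17.3% highest in this rat. Without MT rat 3 the log2 fold changes of Cdca7, Aurka and Kif23 were -0.89, -0.64 and 0.55, with adjusted p values of 0.0353, 0.286 and 0.279 in limma.

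In the comparison of MT with NS, most of the cell cycle genes had group means close to each other. Cdca7 was lower in the MT group. Aurka also had a lower mean past the study's criteria, but with a probe not well above background on 3 arrays. Kif23 had a higher mean by less than 1.5-fold. Of the 31 genes, 20 had a higher and 11 a lower mean in MT, and the median log2 difference was 0.03, against -0.0013 over all RNAs. For 27 of the 31 genes the difference was smaller than 0.3 on the log2 scale. By the study's criteria, read as more than a 1.5-fold linear change and P below 0.05 before adjustment, 2 genes (Cdca7 and Aurka) were lower and 0 higher, beside 2.74% of all RNAs in either direction (0.996% lower and 1.74% higher). The 5 MT values lay below all 5 NS values for the same 2 genes and above them for 0, beside 3.29% and 2.31% of all RNAs (5.6% in either direction). With Benjamini-Hochberg adjustment in limma, 1 gene (Cdca7) was lower at an adjusted p below 0.05 and 0 were higher, beside 0.123% and 0.0739% of all RNAs (0.197% in either direction). An unadjusted P below 0.05 was reached by 2 lower genes and 1 higher gene (Kif23), beside 9.53% and 6.84% of all RNAs (16.4% in either direction).

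**Figure D1:**
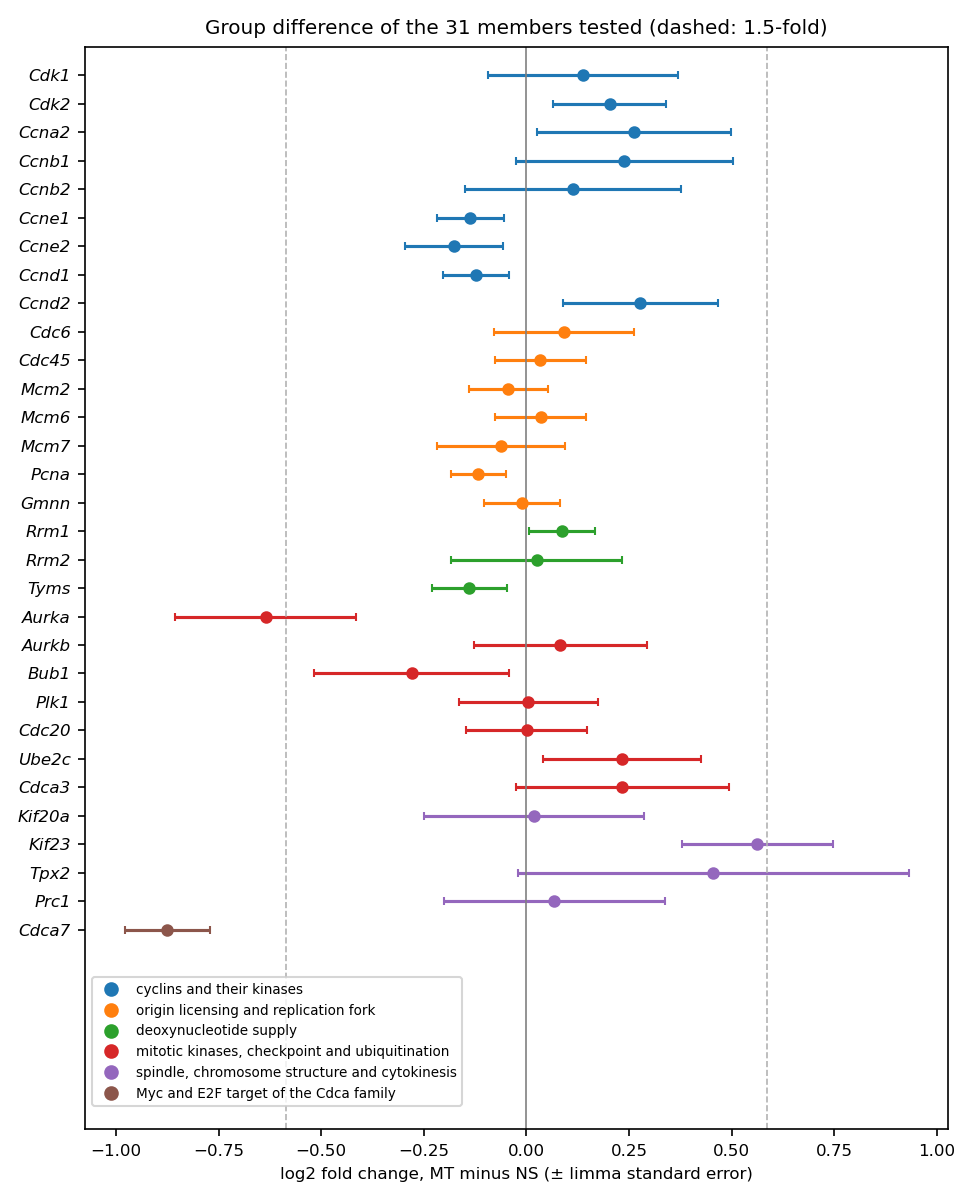
Difference in mean log2 intensity between MT and NS (horizontal axis, with the limma standard error as bars, n = 5 rats per group) for the 31 genes tested, coloured by role. Cdca7 and Aurka lie beyond the lower 1.5-fold line, and Kif23 and Tpx2 lie farthest to the right, inside the upper line.

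Cdca7 showed the largest difference. It encodes a zinc finger nuclear protein that is a known target of Myc and E2F and works with the chromatin remodeler HELLS in DNA methylation, and its gene lies at chr3:77730315-77740950 (GRCr8). Its log2 intensity was 7.72, 7.78, 7.84, 7.45 and 8.06 in MT rats 1 to 5 and 8.56, 8.65, 8.72, 8.66 and 8.63 in NS rats 6 to 10. Every MT rat was below every NS rat, and the NS values were close together (SD 0.06, n = 5) while the MT values spread more (SD 0.22, n = 5). The log2 fold change was -0.88 (SE 0.10) with an adjusted p of 0.0215 in limma, and the exact two-sided permutation test gave p = 0.00794, the smallest it can give with 5 against 5. Within scan 2, MT rat 2 was 0.83 below the mean of the 3 NS rats, a log2 difference of -0.83. The gene met the study's criteria in the main analysis and in all 23 alternatives, and its log2 fold change ranged from -0.95 to -0.62 over all of these. The adjusted p rose above 0.05 with the scan as a fixed block (0.708) or a random block (0.198), without scan 3 (0.12), and without MT rat 1 (0.0989), NS rat 8 (0.0753) or NS rat 9 (0.0675).

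Genes named for the same partnership were read beside it, and were picked after their values were seen. Hells, the remodeler itself, had a log2 difference of -0.39 (SE 0.13, unadjusted P 0.0129, adjusted p 0.199) and Cdca7l, the paralog of Cdca7, of -0.42 (SE 0.16, unadjusted P 0.0252, adjusted p 0.249). Neither passed the study's criteria or the adjusted threshold. Myc, the transcription factor that drives growth and cell cycle entry, was higher in MT, with log2 intensities from 7.93 to 8.33 in MT and from 6.91 to 7.73 in NS. Its log2 fold change of 0.72 (SE 0.16) met the study's criteria with no overlap of the groups, and its adjusted p was 0.0974. The fold fell below 1.5 with normexp background correction (log2 0.53), and within scan 2 the difference was 0.60 with P 0.0808. On these arrays Myc and Cdca7 differed in opposite directions.

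**Figure D2:**
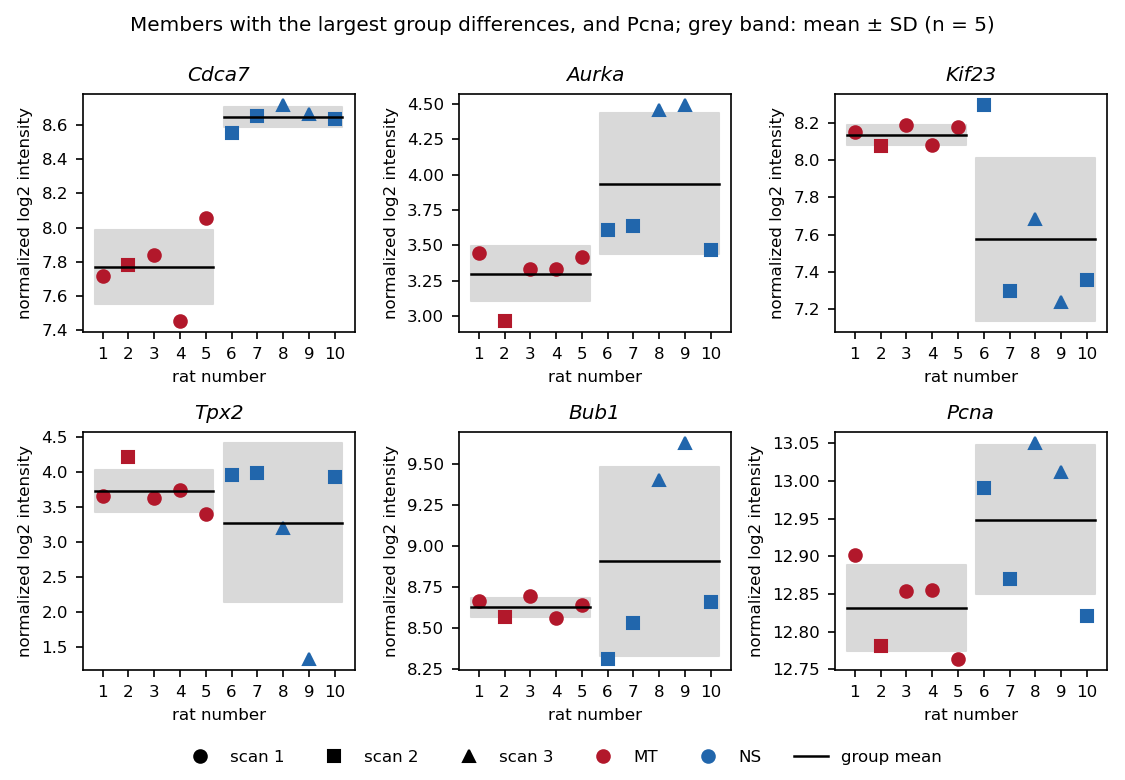
Normalized log2 intensity (vertical axis, a separate scale for each gene) in each of the 10 rats (horizontal axis) for 6 genes, with the group mean as a line, mean ± SD as a grey band (n = 5) and the marker shape giving the scan. The groups are apart for Cdca7 and Aurka, NS rat 6 sits with the MT rats for Kif23, and NS rats 8 and 9 stand apart from the other NS rats for Aurka and Bub1.

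The cyclins and their kinases were all measured. Cdk1, the kinase of mitosis, had a log2 difference of 0.14 (SE 0.23), and its partners Ccnb1, Ccnb2 and Ccna2 had differences of 0.24, 0.11 and 0.26. Cdk2, the kinase of S phase, was at 0.20 and its partners Ccne1 and Ccne2 at -0.14 and -0.18. The D cyclins, which link growth signals to the cycle, went different ways, with Ccnd1 at -0.12 and Ccnd2 at 0.28. None of these 9 genes reached an unadjusted P below 0.05. Of them, Ccne1 had the smallest P (0.13), with 10.21, 10.34, 10.08, 10.26 and 10.24 in MT and 10.34, 10.18, 10.48, 10.52 and 10.30 in NS. The groups overlapped, and the highest values were those of NS rats 8 and 9.

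The genes of origin licensing and the replication fork differed least. The 7 measured were the loader Cdc6, the helicase partner Cdc45, the helicase subunits Mcm2, Mcm6 and Mcm7, the sliding clamp Pcna and the licensing inhibitor Gmnn. Their log2 differences ran from -0.12 to 0.09, and 0 of 7 had an unadjusted P below 0.05. Pcna, with the smallest P (0.112), had 12.90, 12.78, 12.85, 12.86 and 12.76 in MT and 12.99, 12.87, 13.05, 13.01 and 12.82 in NS. The groups overlapped over a narrow range, and the exact permutation test gave p = 0.0635.

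The enzymes of deoxynucleotide supply did not separate the groups either. Rrm1 and Rrm2, the subunits of ribonucleotide reductase, had log2 differences of 0.09 and 0.03. Tyms, thymidylate synthase, had 6.77, 7.08, 6.64, 6.88 and 6.97 in MT and 7.16, 7.01, 6.98, 6.93 and 6.98 in NS. Its difference of -0.14 (SE 0.09) was within the spread of the rats, and the ranges overlapped.

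Aurka, the Aurora kinase that matures centrosomes and builds the spindle poles, had a lower mean in MT, near the background. Its log2 intensity was 3.44, 2.96, 3.34, 3.34 and 3.42 in MT rats and 3.61, 3.64, 4.46, 4.50 and 3.47 in NS rats. The highest MT value lay just under the lowest NS value, and the NS mean rested on rats 8 and 9, whose Aurka spots were not well above background, like that of MT rat 2. In those rats the lowest normalized value of any spot well above background was 4.64 and 5.13, above their Aurka values, so the values of NS rats 8 and 9 are not measured levels. The log2 fold change was -0.64 (SE 0.22, adjusted p 0.214 in limma, exact permutation p 0.00794). Without NS rats 8 and 9 it was -0.27 with an unadjusted P of 0.0476, below 1.5-fold, and within scan 2 the difference was -0.61, where the MT rat was also not well above background. It was -0.21 with 75th percentile scaling and -0.11 with normexp background correction. The criteria were met in 14 of the 22 alternatives that tested the gene.

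The other mitotic kinases, the checkpoint gene and the ubiquitination genes gave no call. Aurkb, the kinase of the chromosomal passenger complex, and Plk1, the Polo kinase, had log2 differences of 0.08 and 0.0050. Cdc20, the activator of APC/C, was at 0.00014, its ubiquitin-conjugating partner Ube2c at 0.23, and Cdca3, which triggers entry into mitosis, at 0.23. Bub1, a spindle checkpoint kinase, had 8.66, 8.57, 8.70, 8.56 and 8.64 in MT and 8.31, 8.53, 9.40, 9.63 and 8.66 in NS. The NS rats 8 and 9 were above all others, NS rats 6 and 7 were below all MT rats, and the log2 difference of -0.28 (SE 0.24) became 0.13 without scan 3.

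Of the spindle and cytokinesis genes, Kif23, the kinesin of the central spindle in the last step of division, was the highest in MT relative to NS. It lies at chr8:71293439-71321911 (GRCr8). Its log2 intensity was 8.15, 8.08, 8.19, 8.08 and 8.18 in MT and 8.30, 7.29, 7.68, 7.24 and 7.36 in NS. The MT rats were within 0.12 of each other and above 4 of the 5 NS rats, and NS rat 6 was above them all. The log2 fold change was 0.56 (SE 0.18) with an unadjusted P of 0.0124, an adjusted p of 0.196 and an exact permutation p of 0.0476. Without NS rat 6 it was 0.74 (adjusted p 0.0376), and with the scan as a fixed block 0.43 (unadjusted P 0.269).

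Tpx2, which activates Aurora A on the spindle, had a wide spread near the background. Its log2 intensity was 3.66, 4.22, 3.63, 3.75 and 3.40 in MT and 3.96, 3.98, 3.19, 1.32 and 3.92 in NS. The low NS values were those of rats 8 and 9, where its spot was not well above background. The difference of 0.46 (SE 0.48) was smaller than its error and turned to -0.22 without scan 3. Kif20a and Prc1, which act with Kif23 at the central spindle, had differences of 0.02 and 0.07.

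A listed set of 168 other cell cycle genes was read in the same fit, of which 114 were tested. Their median log2 difference was -0.02, with 53 higher and 61 lower in MT. By the study's criteria 1 was higher, Myc, and 2 were lower, Cdkn2b and Cdkn1c, which is near the share of all RNAs (2.74%). None of the 114 passed the adjusted threshold in limma, and 21 had an unadjusted P below 0.05, of which 6 were higher and 15 lower. That is 18.4% of them, beside 16.4% of all RNAs. Cdkn2b and Cdkn1c encode the cyclin-dependent kinase inhibitors p15 and p57. Cdkn2b ranged from 3.78 to 4.83 in MT and from 4.98 to 5.88 in NS (log2 fold change -1.07, SE 0.25, adjusted p 0.114). Cdkn1c ranged from 8.99 to 10.00 in MT and from 10.00 to 10.50 in NS (log2 fold change -0.73, SE 0.19, adjusted p 0.129), so its groups only just did not overlap. Its log2 fold change was -0.41 within scan 2 and -0.56 without MT rat 3, both below 1.5-fold. That of Cdkn2b was -0.91 within scan 2 (unadjusted P 0.0372) and -0.37 with normexp background correction. In the replication list 28 of 38 genes had a lower mean in MT, with a median of -0.07, beside 50.2% of all RNAs. Of these 38, 6 had a lower and 1 a higher value at an unadjusted P below 0.05, or 18.4% beside 16.4% of all RNAs, and 0 met the study's criteria.

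Markers of other cells moved with the groups. All 10 microglial markers had a lower mean in MT (median log2 difference -0.34, range -1.24 to -0.10), and 6 of the 10 had an unadjusted P below 0.05, beside 9.53% of all RNAs lower at that level. Their summed linear signal ranged from 144115 to 184285 in MT and from 172227 to 259884 in NS, so the ranges overlapped. All 5 neutrophil markers tested had a higher mean in MT (median 0.63), and their summed signal was small, 218 to 322 in MT against 93.6 to 175 in NS. At an unadjusted P below 0.05 in limma, 2 of the 5 were higher (S100a8 at 1.44 and Camp at 0.56) and 0 lower, beside 6.84% and 9.53% of all RNAs. The groups did not overlap for these 2 genes, beside 2.31% of all RNAs higher without overlap. S100a8, which was dim (NS mean 5.12), also met the study's criteria, beside 1.74% of all RNAs higher. None passed the adjusted threshold in limma. Of the 5 markers, Ngp and Prtn3 were at most 3.67 and 3.70 in the NS rats. The lowest normalized value of any spot well above background was 4.64 in NS rat 8 and 5.13 in NS rat 9. The NS means of Ngp and Prtn3 thus rest partly on values that are not measured levels. The same held for Cxcr2, with an NS mean of 3.99. No probe was matched to the defining neutrophil genes S100a9, Mpo and Elane. Of 6 oligodendrocyte precursor markers, 4 had a lower mean (median -0.09). Of 10 B and T cell markers, 7 had a lower mean (median -0.16). Among these, 3 were lower at an unadjusted P below 0.05 and 0 higher, beside 9.53% and 6.84% of all RNAs. The 3 (Cd22 at -1.05, Dntt at -1.08 and Cd79b at -0.89) also met the study's criteria, beside 0.996% of all RNAs lower. None passed the adjusted threshold in limma, and Dntt and Cd79b were dim (NS means 4.97 and 4.07). Of 7 neuron markers, 5 had a higher mean (median 0.20), 3 of them (Eno2, Rbfox3 and Syp) at an unadjusted P below 0.05 and 0 lower, beside 6.84% of all RNAs higher at that level. The mean centred log2 level of the neuron list was 0.05 to 0.17 in MT rats and -0.16 to 0.02 in NS rats, so these ranges did not overlap. Their summed linear signal did overlap, at 207372 to 246344 in MT and 208165 to 262488 in NS. All 4 motor neuron markers had a higher mean (median 0.29), with none at P below 0.05. Both lumbar Hox genes measured had a higher mean (median 0.32), although MT rat 3 was the lowest rat in both. For Hoxa11, NS rats 7, 9 and 10 were also below MT rats 1, 2, 4 and 5. The medians of the lists for astrocytes, oligodendrocytes, red cells, endothelium, ependyma, muscle and meningeal fibroblasts ran from -0.06 (astrocytes) to 0.24 (meningeal fibroblasts). The part of these cells in the values of Cdca7, Aurka or Kif23 was not tested.

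Within the NS group the cell cycle genes varied widely between individual rats. These rats and genes were picked after their values were seen, each rat is 1 array, and the values are given as a description with no test. NS rat 6 had the highest value of the 10 rats for 14 of the 31 genes (45.2%), against 6.10% of all RNAs. NS rat 7 had the lowest value for 11 of the 31 (35.5%), against 13.6% of all RNAs. The range over the NS rats was above 1 log2 unit for 13 of the 31 genes (41.9%, against 23.2% of all RNAs), and over the MT rats for 1 of 31 (3.23%, against 9.81%). Of those 13 genes, 3 (Aurka, Tpx2 and Cdc6) had spots not well above background in NS rat 8 or 9. The other 10 were well above background on all arrays. Among these 10, Bub1 was 8.31, 8.53 and 8.66 in the NS rats of scan 2 and 9.40 and 9.63 in those of scan 3. The NS rats span scans 2 and 3, while MT rats 1, 3, 4 and 5 share scan 1, so these ranges mix scan with rat. The median SD of the 31 genes was 0.32 in NS and 0.18 in MT, against 0.21 and 0.16 over all RNAs. Over the 3 NS rats of scan 2 alone, which share the scan, it was 0.26, against 0.12 over all RNAs. The SD was wider in NS than in MT for 67.7% of the 31 genes, near the 64.3% of all RNAs. With the NS rats of scan 2 alone it was wider than in MT for 58.1%, against 38.0% of all RNAs.

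**Figure D3:**
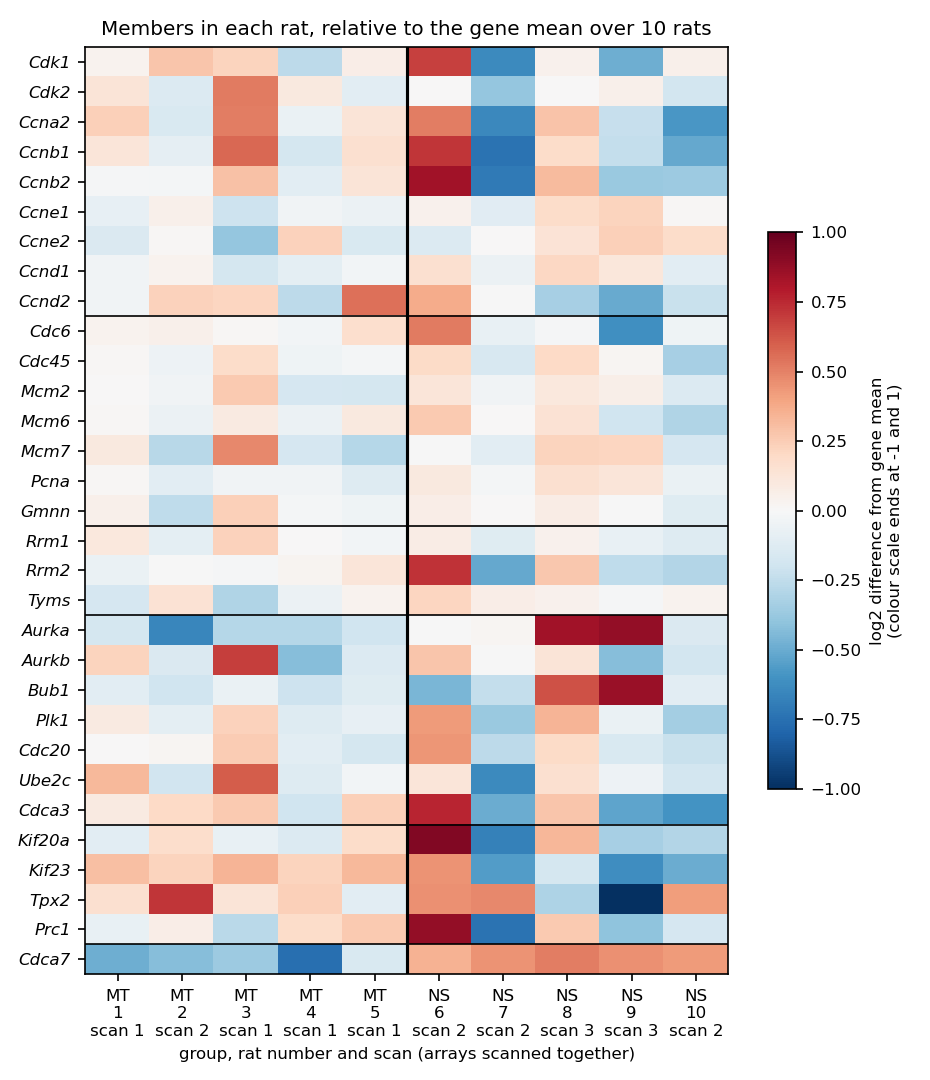
Log2 intensity of the 31 genes (rows, grouped by role from cyclins at the top to Cdca7 at the bottom) in each rat (columns), as the difference from the mean of the gene over 10 rats; red is higher and blue lower, and the colour scale ends at -1 and 1. NS rat 6 is red and NS rat 7 blue over most rows, and in the Cdca7 row the 5 MT rats are blue and the 5 NS rats red.

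Prc1 and Kif20a differed most between NS rats 6 and 7. Prc1, which bundles the microtubules of the central spindle, had 9.50, 7.88, 8.88, 8.21 and 8.45 in NS rats 6 to 10 and 8.54, 8.68, 8.35, 8.80 and 8.88 in MT rats 1 to 5. NS rat 6 was above and NS rat 7 below every MT rat, and the difference between these NS rats was 1.62 on the log2 scale, or 3.07-fold. Kif20a had 9.17, 7.57, 8.58, 7.91 and 7.96 in NS and 8.14, 8.43, 8.17, 8.11 and 8.43 in MT, a 3.04-fold difference between NS rats 6 and 7.

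The cyclin B genes and their kinase followed. Ccnb2 had 10.14, 8.59, 9.61, 8.92 and 8.93 in NS and 9.28, 9.28, 9.59, 9.19 and 9.42 in MT. Ccnb1 had 7.62, 6.16, 7.09, 6.66 and 6.39 in NS and 7.02, 6.81, 7.48, 6.73 and 7.07 in MT. Cdk1 had 9.95, 8.63, 9.30, 8.78 and 9.31 in NS and 9.30, 9.54, 9.49, 9.00 and 9.33 in MT. In each of these 3 genes NS rat 6 was the highest and NS rat 7 the lowest of all 10 rats, with folds between them of 2.92, 2.75 and 2.50. Rrm2, the subunit of ribonucleotide reductase that is made in S phase, had 11.25, 10.02, 10.80, 10.28 and 10.24 in NS and 10.46, 10.53, 10.52, 10.56 and 10.65 in MT. It spanned 1.23 log2 units over the NS rats and 0.19 over the MT rats.

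NS rats 6 and 7 were scanned together, as were NS rats 8 and 9, so each pair compares rats within a scan. NS rat 6 was above NS rat 7 for 26 of the 31 genes, with a median log2 difference of 0.35 and 13 genes over 1.5-fold, against 51.4% of all RNAs higher, a median of 0.0066 and 4.42% over 1.5-fold. None of the 31 was over 1.5-fold the other way. NS rat 6 was also above NS rat 10 for 28 of 31 genes (48.6% of all RNAs). NS rat 8 was above NS rat 9 for 26 of 31 genes with a median of 0.21, against 49.1% of all RNAs and a median of -0.0023. Both held for 24 of the 31 genes (77.4%), against 28.5% of all RNAs. Among the 114 other cell cycle genes both held for 73 (64.0%), led by the mitotic genes Kif2c, Pbk and Ska1, with NS rat 6 above NS rat 7 by 1.83, 1.65 and 1.58 log2 units. Genes read from 1 array share its RNA and are not independent.

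**Figure D4:**
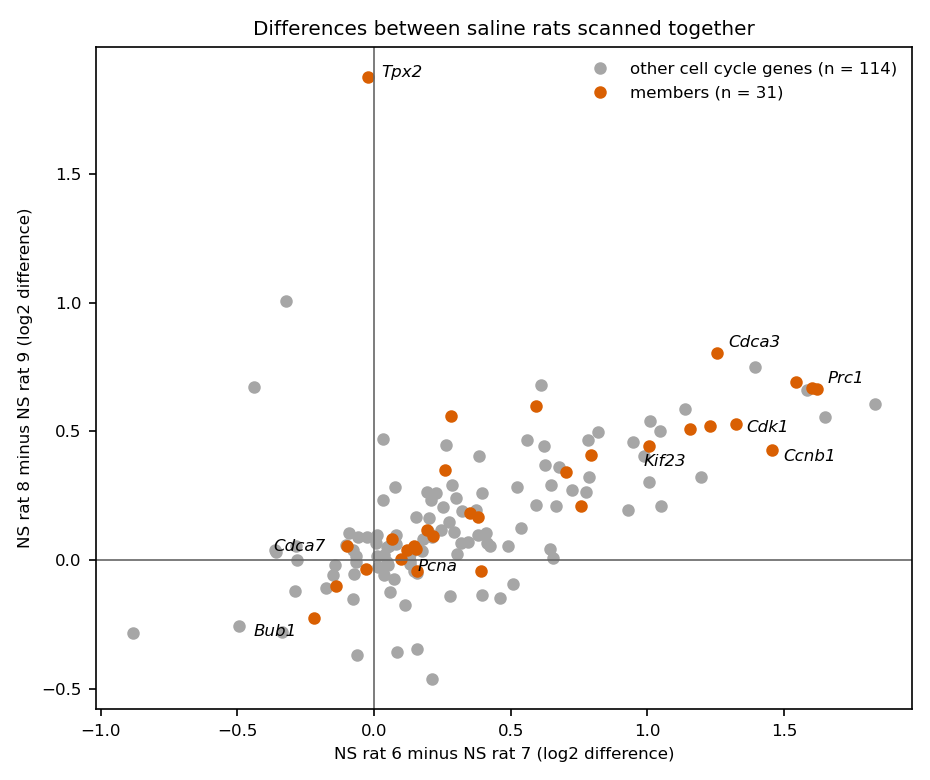
Log2 difference between NS rats 6 and 7 (horizontal axis) and between NS rats 8 and 9 (vertical axis) for the 31 genes (orange) and the 114 other cell cycle genes (grey), 1 point per gene. Prc1, Ccnb1, Cdk1 and Cdca3 lie to the upper right, Pcna and Cdca7 lie near zero, and Tpx2 lies apart at the top, where its spots were not well above background.

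By role, the median difference between NS rats 6 and 7 was 1.31 for the 4 spindle and cytokinesis genes, 0.70 for the 7 mitotic kinase, checkpoint and ubiquitination genes, 0.39 for the 9 cyclins and kinases, 0.20 for the 3 genes of deoxynucleotide supply and 0.15 for the 7 replication genes. The genes without this difference were Cdca7 (-0.10), Aurka (-0.03), Tpx2 (-0.02), Ccne2 (-0.14) and Bub1 (-0.22). Of the 31 genes, Cdca7 varied least among the NS rats, over 0.16 log2 units, and most between the groups.

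Some cell markers moved with the same pairs of rats. The 6 meningeal fibroblast markers had a median log2 difference of 0.52 between NS rats 6 and 7 and of 0.41 between NS rats 8 and 9, with 5 of 6 higher in each. The 4 motor neuron markers had medians of 0.67 and 0.34, and all 4 were higher in each. The 2 lumbar Hox genes, Hoxa11 and Hoxd10, had the largest medians of the lists, 2.04 between NS rats 6 and 7 and 1.08 between NS rats 8 and 9, with both higher in each pair. Between NS rats 6 and 10 their median was 1.90. The medians of that pair were 0.86 for the meningeal fibroblast, 0.71 for the motor neuron and -0.34 for the skeletal muscle markers. The 6 oligodendrocyte precursor markers had medians of -0.01 and -0.10 in the pairs of NS rats 6 and 7 and of NS rats 8 and 9. The 10 microglial markers had medians of -0.28 and 0.04. For the 4 ependymal markers they were 0.15 and 0.06, with 3 of 4 higher in each pair. For the 4 endothelial markers they were -0.21 and 0.05, with 0 and 3 higher. Other lists went the opposite way in both pairs. The 7 skeletal muscle markers had medians of -0.39 and -0.15, with 0 and 1 higher. The 7 mature oligodendrocyte markers had medians of -0.12 and -0.16, with 2 and 0 higher. The summed linear signal of the meningeal list was 5730 to 10421 over NS rats and 8430 to 9078 over MT rats. NS rat 10 was the lowest and NS rat 6 the highest. The part of the meningeal, motor neuron, ependymal, endothelial, muscle, oligodendrocyte and position code genes in the cell cycle values was not tested.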

How the data were processed

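Each rat gave 1 single-colour array. The authors scanned the arrays, read them with Agilent Feature Extraction 11.0.1.1, and deposited for every spot its intensity after background subtraction and its flags (dim, saturated, outlier). The authors also deposited a table of log2 values, quantile normalized in GeneSpring. The genome build behind the probes is not given in the sources used here, and positions are those of RefSeq genes on GRCr8.

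The deposited intensity was floored at 1, taken to log2 and quantile normalized over non-control spots (limma 3.58.1, R 4.3.3). Outlier spots were dropped and the remaining spots averaged by probe, then by RNA. Probes were retained when most of their spots exceeded background clearly on 5 or more of the 10 arrays. Gene symbols were found for 14274 of 15323 mRNA probes, and where a gene had several RNAs the brightest was used. MT was compared with NS by linear models with empirical Bayes moderation in limma over 20286 RNAs, with Benjamini-Hochberg adjustment over all of them, and single genes by exact two-sided permutation over 252 assignments. The fit was tested on simulated arrays. Shares of all RNAs in single rats are over 20221 RNAs complete on the 10 arrays. The number of arrays limits the precision.

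The genes, role lists, other cell cycle genes and marker lists were chosen with earlier results of these data known. Values by rat are given for listed genes past the study's criteria or the adjusted threshold or with groups apart, for the 3 further genes with the largest differences, and for the gene with the smallest P where a role list had none. Rrm2, Prc1, Kif20a, Ccnb1, Ccnb2 and Cdk1 were added after their values were seen, as were the promoters shown. The alternatives were 75th percentile scaling, normexp on the median signals (offset 50), the deposited table, no filter, a filter on all 10 arrays, Student's test as in the methods, a trend of the variance, weights for arrays, the scan as a fixed or random block, leaving out scan 3, keeping outlier spots, single probes, and leaving out each rat. Promoters were read and figures drawn with Python 3.11.15, pandas 2.3.3, numpy 2.4.6 and matplotlib 3.10.9.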

Additional observations from a re-analysis of the deposited data

Results flagged for a closer look

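Each gene was looked at within each group of 5 rats for a single rat that stands apart (Dixon's ratio above 0.71), and chance marks about 1 group in 20. Of 62 groups, 2 held such a rat. Cdc45 was 7.49 in MT rat 3, with the other MT rats between 7.26 and 7.32. Aurka was 2.96 in MT rat 2, with the other MT rats between 3.34 and 3.44, and the spot of MT rat 2 was not well above background.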

How the results depend on the processing

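The direction of Cdca7, Aurka and Kif23 held in the 23 alternatives wherever the gene was tested. The number of the 31 genes past the study's criteria was 2, and it was 1 with normexp, in the deposited table, with a filter on all 10 arrays, with array weights and without scan 3. It lay between 1 and 3 when each rat was left out in turn, with 1 without MT rat 2 or NS rat 9 and 3 without NS rat 6. With 75th percentile scaling and without NS rat 8 the 2 genes were 1 higher (Kif23) and 1 lower (Cdca7), and Aurka was not among them. The number past the adjusted threshold was 1, and it was 0 with the scan as a fixed or a random block and without scan 3. It lay between 0 and 2 when each rat was left out, with 0 without MT rat 1, NS rat 8 or NS rat 9 and 2 without NS rat 6, where Kif23 joined Cdca7. Over all RNAs the fixed and random blocks also left 0. The other cell cycle genes past the criteria were 3 in the main analysis, 5 with 75th percentile scaling, 1 with normexp, 1 with the fixed block, and 2 to 5 when each rat was left out, with 5 without NS rat 6. The median log2 difference of the 31 genes was between -0.06 with array weights and 0.12 without NS rat 6, and between -0.05 and 0.12 when each rat was left out, so its sign is not settled. Scaling to the 75th percentile moved the median of all RNAs to 0.07. With the fixed block, the difference rests on 1 MT and 3 NS rats of scan 2. No paired analysis was possible because the groups share no replicate numbers. Signal over background limits Aurka, Tpx2, Nusap1 and, in NS rat 9, Cdc6, and 28 of the 31 genes were well above background on all 10 arrays. P values weigh a group difference against the variation between rats within the groups. As scan 1 held MT rats alone and scan 3 NS rats alone, they cannot tell scan from group.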
